A study of Mus musculus with 6 samples.

Results

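The CMTM family (CKLF-like MARVEL transmembrane domain-containing) comprises 9 genes in the mouse, Cmtm1, Cmtm2a, Cmtm2b and Cmtm3 to Cmtm8, which were taken by symbol from a table of 55487 gene identifiers. The family was chosen because the RNA of Cmtm2b all but vanished in the dsfb testes, so the level of Cmtm2b is given as a description with no test. The other 8 members entered by name only, and 6 of them had enough reads to be tested. Cklf, the founding gene of the wider chemokine-like factor family, is described beside them. The libraries were made from polyadenylated RNA of whole mouse testes collected on postnatal day 19, when the first wave of spermatogenesis has reached meiosis. The control group (3 libraries) carries the genotype label control, with no strain or allele given. The dsfb group (3 libraries) is homozygous for SFB alleles of Hormad1 and of Hormad2 according to the title of the series; these genes encode proteins of the meiotic chromosome axis. Neither group is labelled with a treatment, and the testes are said to come from different mice.

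CMTM proteins cross the membrane several times through a MARVEL domain, a fold shared with proteins of myelin, synaptic vesicles and tight junctions, and many of them act by holding other membrane proteins at the cell surface or by steering their traffic. In mouse sperm CMTM2A and CMTM2B are needed together: males that lack both are infertile, and their sperm lack ADAM3, a surface protein required for passage into the oviduct and for binding to the egg coat. In human cells CMTM6, with CMTM4 as a second factor, protects the immune checkpoint ligand PD-L1 from degradation.

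The family lies in 2 clusters and a single gene (GRCm38, GENCODE M21). On chromosome 8, 5 members occupy 114.8 kb: Cmtm2a (104281042 to 104293181, minus strand), Cmtm1 (104292622 to 104310145, minus), Cmtm2b (104322230 to 104330764, plus), Cmtm3 (104339410 to 104347672, plus) and Cmtm4 (104348191 to 104395807, minus), with Cklf (104250861 to 104264938, plus) just outside. Cmtm6 (114731116 to 114749344, plus), Cmtm7 (114756836 to 114781856, minus) and Cmtm8 (114789345 to 114844156, minus) span 113 kb of chromosome 9. Cmtm5 stands alone on chromosome 14 (54936261 to 54939274, plus).

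Cmtm2a and Cmtm2b, the members whose RNA was almost absent from the dsfb testes, begin with nearly the same sequence on opposite strands. Their promoter windows, from 250 bases before to 50 bases after the RefSeq start (GRCm38.p6), are shown 5′ to 3′, with the bases in capitals where they differ within the aligned part. The window of Cmtm2a is chr8:104293132-104293431 on the minus strand, and that of Cmtm2b is chr8:104321977-104322276 on the plus strand.
Cmtm2a: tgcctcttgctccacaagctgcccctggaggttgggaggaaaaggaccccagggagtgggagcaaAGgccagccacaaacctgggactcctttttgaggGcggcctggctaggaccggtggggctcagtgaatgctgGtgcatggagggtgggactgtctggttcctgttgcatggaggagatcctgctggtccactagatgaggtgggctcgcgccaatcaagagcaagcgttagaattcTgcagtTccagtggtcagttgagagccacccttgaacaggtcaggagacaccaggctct
Cmtm2b: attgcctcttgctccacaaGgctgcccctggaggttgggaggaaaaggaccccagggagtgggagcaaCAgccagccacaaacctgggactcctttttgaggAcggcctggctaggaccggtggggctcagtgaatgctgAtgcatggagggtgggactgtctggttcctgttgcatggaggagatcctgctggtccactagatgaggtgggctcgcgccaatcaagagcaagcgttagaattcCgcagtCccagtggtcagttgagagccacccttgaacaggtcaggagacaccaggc
Of 297 aligned bases 291 were identical (98.0%), with 6 substitutions and 1 base present only in Cmtm2b, and the longest unbroken stretch of identity ran for 103 bases. Between any other pair among the members and Cklf the same alignment joined at most 36 bases, in Cmtm4 and Cmtm8 (27 identical). It leaves unmatched ends free, so it gives no percent identity for the whole windows of those pairs. The likeness weakened within the genes: the first exons matched at 225 of 254 aligned bases (88.6%) and the coding sequences at 330 of 492 (67.1%). That was still the highest coding identity of any pair, the others lying between 50.8% and 63.1%.

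The windows of Cmtm2a and Cmtm2b held 5 and 6 CpG dinucleotides, and their ratios of observed to expected CpG were 0.20 and 0.24. Both ratios were below the median of 32851 RefSeq promoters (0.384) but within the usual range, higher than those of 28.6% and 34.0% of promoters. Cmtm6 had the highest ratio of the family, 1.09 with 22 CpG, higher than 97.8% of promoters. It is shown for contrast, with each CpG in capitals (chr9:114730953-114731252, plus strand).
Cmtm6: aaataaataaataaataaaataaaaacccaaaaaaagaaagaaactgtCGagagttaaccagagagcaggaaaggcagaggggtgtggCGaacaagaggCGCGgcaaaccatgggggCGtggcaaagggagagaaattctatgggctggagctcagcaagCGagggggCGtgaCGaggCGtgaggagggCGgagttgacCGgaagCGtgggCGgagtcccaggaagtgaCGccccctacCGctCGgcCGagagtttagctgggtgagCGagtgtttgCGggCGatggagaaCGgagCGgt
The ratio was 0.85 in Cmtm4, 0.67 in Cmtm8, 0.66 in Cmtm3, 0.55 in Cklf, 0.54 in Cmtm7, 0.32 in Cmtm1 and 0.04 in both windows of Cmtm5. So the 3 members with the lowest ratios besides Cmtm5 were Cmtm2a, Cmtm2b and Cmtm1, and the 4 members that rose in dsfb (given below) all lay above the median. Cmtm8, which did not pass the test, and Cklf, which fell, lay above it too. Cmtm1 and Cmtm5 had too few reads to be tested. Motifs were searched on both strands. AACNG, the core bound by MYB proteins, occurred 4 times each in the Cmtm2a and Cmtm2b windows, but 80.3% of all promoters hold it. TGACG, the core of a cyclic AMP response element, occurred only in Cmtm6 (2 matches; 20.8% of promoters). The full element TGACGTCA, which contains TGACG (1.79% of promoters), the E-box CACGTG (7.15%), the RFX site GTTGCC (12.5%) and the TATA box TATAAA (13.6%) had no match in these windows.

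In the control testes Cmtm2b was by far the most abundant member. Levels of different genes were compared as CPM, read counts scaled to a common library size, per kb of exon. Cmtm2b stood at 222, 260 and 323 CPM per kb in control replicates 1, 2 and 3, higher than 99.5% of tested genes. Cmtm2a followed at 37.9 ± 9.89 CPM per kb (SD, n = 3), or 68.5 on the 703 exon bases that it shares with no other gene. Cmtm6 (26.5 ± 1.24) and Cklf (25.7 ± 2.10) had overlapping ranges below it. These lengths join all exons of a gene. With the longest transcript instead, Cklf was at 53.7 CPM per kb, above Cmtm2a at 44.6 and Cmtm6 at 26.9, so its place depends on the length used. Then came Cmtm3 (6.74 ± 1.22), Cmtm4 (3.77 ± 0.595), Cmtm7 (0.928 ± 0.213) and Cmtm8 (0.307 ± 0.133), each with control libraries all below those of the gene before it. Of these, Cmtm3 moved to 12.4 and Cmtm7 to 1.47 with the longest transcript, which left their place among the members as it was. Cmtm1 and Cmtm5 were at or near 0, with overlapping ranges. Cmtm2b gave 5.56, 4.66 and 4.72 reads for each read of Cmtm2a in the 3 control libraries.

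Cmtm2b had 4206, 5532 and 6134 reads in the control libraries, which is 196, 228 and 284 CPM, and 1, 0 and 0 reads in the dsfb libraries. As a description of the value that chose the family, the ratio of control to dsfb was 13126, with a 95% interval of 2356 to 518497 that covers only the counting error of so few dsfb reads. Without control replicate 3, the library with the highest level, the ratio was 11855 (2127 to 468284).

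Cmtm2a, its partner in sperm, had 756, 1187 and 1301 reads in control (35.2, 49.0 and 60.3 CPM) and 2, 0 and 0 in dsfb. The ratio was 1341 (95% counting interval 371 to 11081), and 1183 (327 to 9773) without control replicate 3. In the fit of all genes it fell (log2 fold change −10.16, SE 0.53, edgeR adjusted p = 3.09e-06, n = 3 per group). It passed the low-count filter on its control reads alone, and its promoter window is nearly that of Cmtm2b, whose fall chose the family. The fitted value depends on the prior count. All the dsfb reads of both genes came from dsfb replicate 1, and without that library Cmtm2a had 0 reads in dsfb and a fitted value of −12.95. In sequence the transcripts of the pair have 47 windows of 50 bases in common (3.70% of those of Cmtm2a and 5.36% of those of Cmtm2b) and none of 100 bases. The windows start at each base and overlap, so 47 is not a number of separate stretches.

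Cklf, whose protein is a secreted chemoattractant in human cells, was at 143, 163 and 167 CPM in control and at 18.0, 25.4 and 18.9 CPM in dsfb. The groups did not overlap, and Cklf fell 7.60-fold (log2 −2.93, SE 0.15, edgeR adjusted p = 3.07e-06). Unlike Cmtm2a and Cmtm2b it kept 354, 442 and 350 reads in the dsfb libraries.

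**Figure D1:**
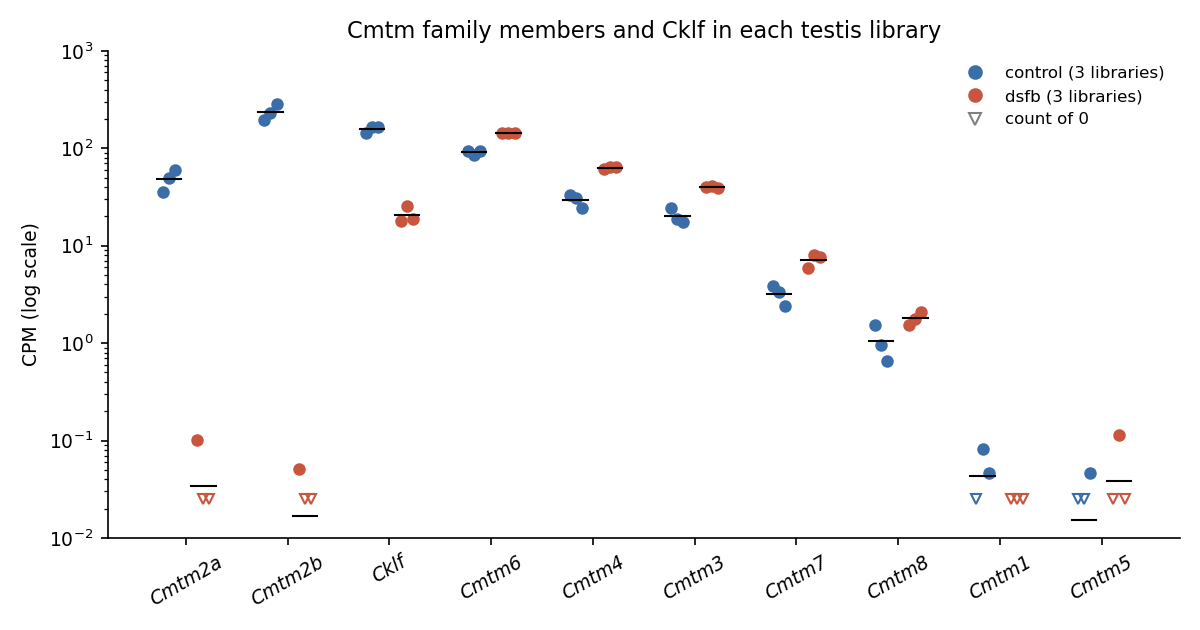
CPM of each member and of Cklf on a log scale, 1 point per library, with a bar at the mean of each group and open triangles for counts of 0. Cmtm2a and Cmtm2b drop by more than 3 orders on the axis and Cklf by less than 1, whereas Cmtm6, Cmtm4, Cmtm3 and Cmtm7 lie higher in each dsfb library than in each control library.

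Over the tested members other than Cmtm2b, 4 rose, 1 (Cmtm2a) fell and 1 did not pass the test. Of all 19826 tested genes 66.9% passed, 30.7% as rises and 36.2% as falls, and since the family was chosen on this same comparison nothing is read from its share. Cmtm6, which protects PD-L1, was the highest of those that rose: 94.1, 86.1 and 92.9 CPM in control against 143, 143 and 143 CPM in dsfb. Its dsfb libraries were nearly equal to each other and all above control (log2 0.65, SE 0.08, edgeR adjusted p = 0.000202). Cmtm4, the second factor for PD-L1, was at 32.9, 30.6 and 24.1 CPM in control and 60.6, 64.1 and 64.1 CPM in dsfb (log2 1.11, SE 0.13, edgeR adjusted p = 0.000225). Cd274, the gene for PD-L1, moved the other way, from 5.65 ± 0.293 to 3.86 ± 0.433 CPM (SD, n = 3; log2 −0.55, SE 0.20, edgeR adjusted p = 0.0404). That call was narrow: it was lost with upper-quartile (log2 −0.27, adjusted p = 0.262) and library-size scaling (log2 −0.16, adjusted p = 0.521), without a low-count filter (adjusted p = 0.0800) and with the replicate numbers as a block (adjusted p = 0.0540). It was also lost without control replicate 1 (adjusted p = 0.0575) or 2 (0.111) and without dsfb replicate 1 (0.139), 2 (0.0986) or 3 (0.0584).

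Cmtm3, a gene often silenced by methylation in human tumours, was at 24.2, 18.7 and 17.4 CPM in control and at 40.2, 40.6 and 39.4 CPM in dsfb (log2 0.99, SE 0.15, edgeR adjusted p = 0.000726). Cmtm7, needed for the development of a class of B cells in mice, was low, at 3.86, 3.34 and 2.41 CPM in control and 5.89, 7.97 and 7.61 CPM in dsfb (log2 1.16, SE 0.25, edgeR adjusted p = 0.00479). All dsfb libraries of both genes lay above all control libraries. Cmtm8, which in human cells speeds the uptake of the EGF receptor, had only 33, 23 and 14 reads in control (1.54, 0.95 and 0.649 CPM) and 30, 31 and 39 in dsfb (1.52, 1.78 and 2.11 CPM). Its groups overlapped and it did not pass the test (log2 0.78, SE 0.37, edgeR adjusted p = 0.0918). Control replicate 1 held its highest control value, and without that library Cmtm8 passed (log2 1.12, adjusted p = 0.0325).

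Cmtm5, known from myelinating glia of the mouse brain, had 0, 0 and 1 reads in control and 0, 2 and 0 in dsfb and was not tested. Cmtm1 had 0, 2 and 1 reads in control and 0, 0 and 0 in dsfb and was not tested either. Its count is uncertain: 1768 of its 2218 exon bases (79.7%) also belong to other genes on the same strand, 1509 of them to the predicted gene Gm45711, listed at 0 in each library, and 418 to Cmtm2a. Reads from shared bases may have been set aside when the genes were counted. The same overlap covers 569 of the 1272 exon bases of Cmtm2a (44.7%).

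The family's RNA therefore changed in make-up. Summed over the 9 members it was 291, 335 and 407 CPM per kb in control and 65.2, 66.5 and 65.9 CPM per kb in dsfb. In control Cmtm2b made up 77.7 ± 1.5% of the sum, Cmtm2a 10.9 ± 1.21% and Cmtm6 7.83 ± 1.41% (SD, n = 3). In dsfb Cmtm6 made up 63.2 ± 0.558%, Cmtm3 20.4 ± 0.343% and Cmtm4 12.4 ± 0.298%, while Cmtm2b was down to 0.0295%. With longest transcripts these dsfb shares were 53.4% (Cmtm6), 31.2% (Cmtm3) and 10.3% (Cmtm4). The order of Cmtm6, Cmtm3, Cmtm4, Cmtm7 and Cmtm8 was the same in both groups, with no overlap between neighbours in that order.

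**Figure D2:**
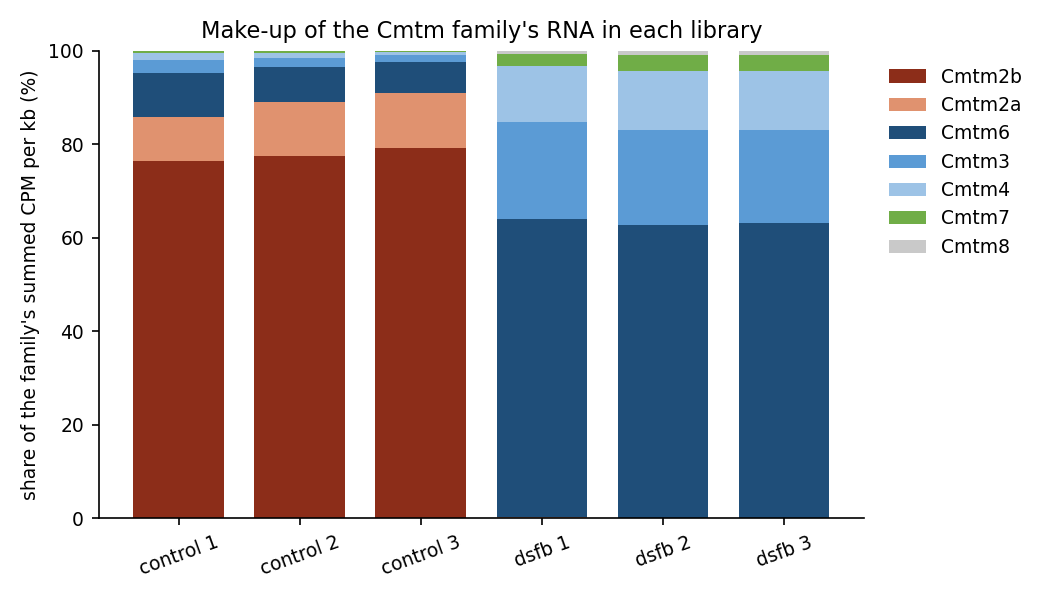
Share of each member in the family's summed CPM per kb (percent), 1 bar per library; Cmtm1 and Cmtm5 are too low to be seen. Cmtm2b fills 76.3% to 79.3% of the control bars, and Cmtm6 fills 62.7% to 63.8% of the dsfb bars.

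These are whole testes, in which fewer cells of a type and less RNA per cell cannot be told apart. Cell type markers changed as well, where 30.7% of all 19826 tested genes rose and 36.2% fell. The 8 markers of mid to late pachytene spermatocytes all fell, from a summed 7123 to 9832 CPM over the control libraries to 290 to 320 CPM over the dsfb libraries. All 9 tested spermatid markers (of 11) fell too, from 70.3, 71.7 and 800 CPM in control to between 12.8 and 14.7 CPM in dsfb, so control replicate 3 stood apart from the other controls. All 10 Sertoli cell markers rose, from 1975 to 2723 CPM up to 4779 to 5049 CPM. Of the markers of other somatic cells 3 of 6 (Leydig), 3 of 5 (peritubular myoid), 5 of 8 (leukocyte) and 1 of 5 (endothelial) rose and none fell. Their summed levels went from 206 to 367, 191 to 304, 78.0 to 108 and 29.9 to 32.7 CPM in control to 246 to 524, 349 to 476, 126 to 199 and 39.0 to 46.1 CPM in dsfb. The share of endothelial markers that rose lay below that of all tested genes. Of the 9 spermatogonial markers 7 rose and 1 fell, although their sum was lower in dsfb (377 to 425 CPM) than in control (667 to 882 CPM). No marker on any of these lists was at 0 across the dsfb libraries.

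Set against those sums, a measure chosen after the values had been seen, the members divided into groups. Cmtm2b stood at 27.5, 28.4 and 28.9 CPM per 1000 CPM of pachytene marker RNA in control, a spread of 0.731 (SD) that is narrow beside that of its CPM. In dsfb it stood at 0.175, 0 and 0. Cmtm2a went from 4.94, 6.10 and 6.13 to 0.350, 0 and 0 on the same scale. The marker sum itself kept 3.62% of its control level, and 86.4% of what it kept in dsfb was Hspa2, a heat shock gene of spermatocytes whose log2 change was −2.65. The median marker changed by −7.95, so the sum understates the fall of most of them. Cmtm2a, at −10.16, had a larger fitted fall than 7 of the 8 markers, the exception being Nme8 (−11.28). That value rests on 2 reads in dsfb replicate 1 and on the prior count. Its counting interval (371- to 11081-fold) takes in the fall of Ccna1 (log2 −8.88), so its place among the markers with the largest falls is not settled. Cklf stood at 20.1, 20.3 and 16.9 per 1000 CPM in control and 61.9, 85.9 and 59.0 in dsfb, and 7 of the 8 markers fell more than it did, Hspa2 being the exception.

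Per 1000 CPM of Sertoli marker RNA, of which Clu was 75.05% in control and 73.6% in dsfb, Cmtm3 stood at 8.90, 7.35 and 8.80 in control and 8.42, 8.03 and 8.14 in dsfb, and the groups overlapped. Cmtm4 stood at 12.1, 12.01 and 12.2 in control and 12.7, 12.7 and 13.3 in dsfb, all dsfb libraries higher but by 1.06-fold on average. The groups overlapped as well for Cmtm7 (1.42, 1.31 and 1.22 against 1.23, 1.58 and 1.57) and Cmtm8 (0.564, 0.373 and 0.329 against 0.319, 0.352 and 0.436). Cmtm6 was lower in each dsfb library (29.9, 28.4 and 29.6) than in each control library (34.5, 33.9 and 47.01). With the 7 autosomal Sertoli markers alone the ratios of dsfb to control differed by at most 0.00286 from those over all 10. How much of each rise comes with the share of Sertoli cells was not tested.

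**Figure D3:**
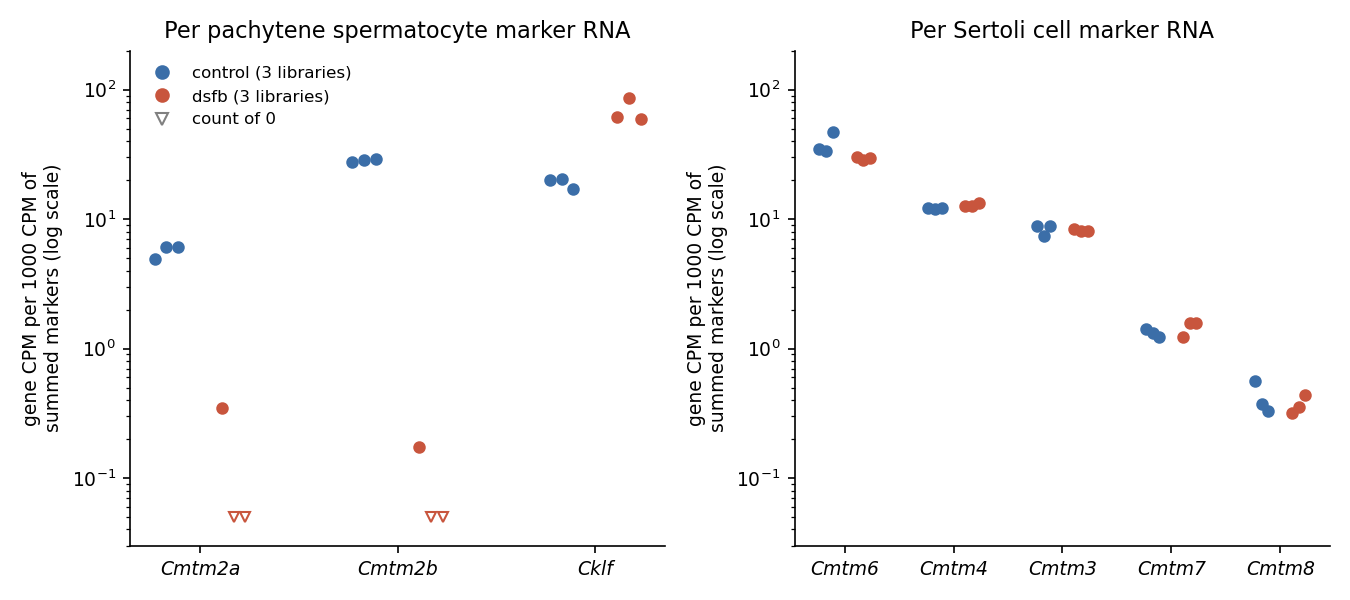
Level of each gene per 1000 CPM of summed pachytene spermatocyte markers (left) or Sertoli cell markers (right) on a log scale, 1 point per library, with open triangles for counts of 0. On the left, where most of the dsfb marker sum is Hspa2, Cmtm2a and Cmtm2b lie below and Cklf above its control level, and on the right the dsfb points of Cmtm4, Cmtm3, Cmtm7 and Cmtm8 lie close to or among the control points.

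The control libraries also differed among themselves. Control replicate 3 had the highest Cmtm2a, Cmtm2b, pachytene and spermatid values, and the lowest Cmtm3, Cmtm4, Cmtm7, Cmtm8 and Sertoli marker values. Cmtm2b was 1.34-fold and Cmtm2a 1.43-fold higher there than the mean of control replicates 1 and 2, and Cmtm4 was at 0.758 and Cmtm7 at 0.669 of that mean. Cmtm6 did not go with the other members that rose: it was at 1.03 of that mean and lowest in control replicate 2.

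On chromosome 8 the near-complete loss did not extend over the cluster. Cmtm3 begins 8.65 kb downstream of the end of Cmtm2b and rose, as did Cmtm4 after it. On the far side of Cmtm4, Dync1li2, a dynein light intermediate chain gene, fell from 285 ± 11.6 to 143 ± 4.50 CPM (log2 −0.996, SE 0.08, edgeR adjusted p = 2.77e-05). Terb1, which tethers meiotic telomeres to the nuclear envelope, fell from 81.7 ± 17.7 to 29.8 ± 3.51 CPM (log2 −1.46, SE 0.18, edgeR adjusted p = 0.000241). Nae1, a subunit of the NEDD8-activating enzyme, did not pass with all libraries (log2 −0.40, adjusted p = 0.0755) but did without control replicate 3 (log2 −0.61, adjusted p = 9.30e-07), with RLE scaling (0.0354), no filter (0.0436), DESeq2 (0.0137) or the replicate block (0.0296). On the side of Cklf, Tk2, the mitochondrial thymidine kinase, did not pass (log2 −0.22, adjusted p = 0.160), and Bean1 fell (log2 −1.71, adjusted p = 0.0288; −0.91 without control replicate 3, and not past the threshold without dsfb replicate 1, adjusted p = 0.0996, or 2, 0.0847, with library-size scaling, 0.0612, or with limma-voom, 0.0677). Gm45710, Gm11020 and Gm45878, predicted genes inside the cluster, had 30, 25 and 34 reads over the control libraries and 0 over the dsfb libraries, whereas Gm45877, also inside it, had 5 and 9; all 4 had too few reads to be tested.

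**Figure D4:**
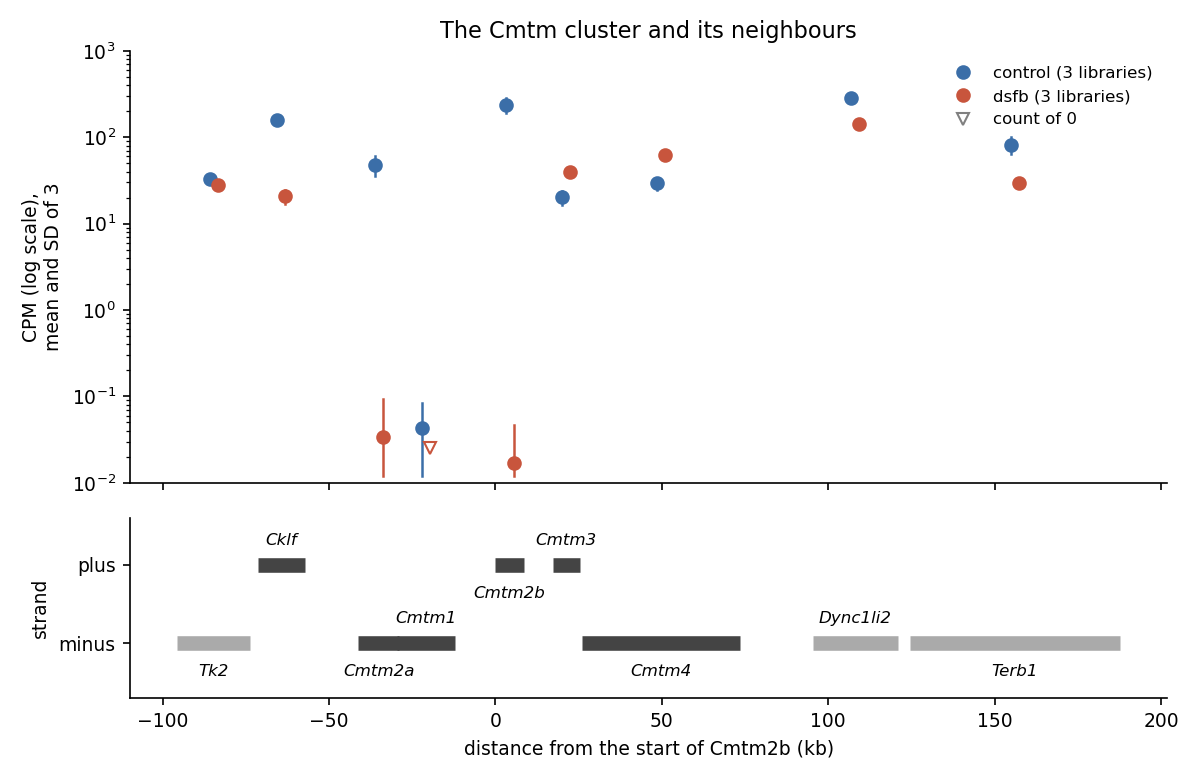
Mean CPM with SD (log scale; a bar that would pass 0 stops near the axis) of the Cmtm cluster on chromosome 8 and its nearest neighbours, plotted at each gene's midpoint in kb from the start of Cmtm2b, above the genes drawn to scale by strand (members and Cklf dark, neighbours light). Cmtm2a and Cmtm2b fall to under 0.1 CPM in dsfb, with Cmtm3 and Cmtm4 higher in dsfb a short distance away.

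Beside the cluster on chromosome 9, Trim71 (log2 0.90), Dync1li1 (0.38) and Gpd1l (1.04) rose, Cnot10 fell (−0.24), and Osbpl10 (−0.70) and Rps27rt (−0.68) did not pass. Osbpl10 was at 18.1, 15.6 and 70.8 CPM in control and 20.4, 19.3 and 24.4 CPM in dsfb, and without control replicate 3 it was a rise (log2 0.32, adjusted p = 0.0391). Rps27rt then passed as a fall (log2 −1.03, adjusted p = 0.00299). The calls of Cnot10 and Dync1li1 were lost without some single libraries, with adjusted p up to 0.112 and 0.0758, that of Dync1li1 also with RLE scaling (0.0514) and with no filter (0.113), and Cnot10 turned with upper-quartile and library-size scaling. Around Cmtm5 on chromosome 14, where the member itself was almost unread, Slc22a17 (1.55), Efs (1.31), Myh6 (1.32) and Myh7 (1.16) rose. Myh7 was not past the threshold without dsfb replicate 3 (adjusted p = 0.0513).

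The genes around ADAM3, the sperm protein that depends on CMTM2A and CMTM2B, were followed as a list of 18 drawn up from mouse work. Of the 16 that could be tested, 10 fell, 0 rose and 6 did not pass, where 36.2% of all tested genes fell and 66.9% passed. The median log2 change of the list was −3.80 (0.02 over all tested genes). Setting Rnase10, which had no reads in dsfb, at its bound could not move this median, since the bound lies below it too. Rnase10, Adam3 and Pdilt, with 0, 6 and 12 reads over the dsfb libraries, passed the low-count filter on control reads alone. A fall was the only change that could be called for such genes, so the number of falls is a description. Adam3 itself had 11124, 14451 and 17093 reads in control and 2, 3 and 1 in dsfb, a ratio of 5881 (95% counting interval 2702 to 16027), though a predicted gene overlaps it on the other strand. Adam2, the partner of the fertilin complex, was at 480, 549 and 696 CPM in control and 13.5, 18.2 and 20.4 CPM in dsfb (log2 −5.05, SE 0.22, edgeR adjusted p = 1.17e-06). Adam1b, a fertilin subunit, fell from 155 ± 31.5 to 0.746 ± 0.300 CPM (SD, n = 3; log2 −7.70). For these 3 ADAM genes no dsfb library came near the control range.

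Among the endoplasmic reticulum chaperones of ADAM3, Clgn (calmegin) fell from 1232 ± 50.9 to 86.6 ± 12.03 CPM (log2 −3.83, SE 0.13, edgeR adjusted p = 4.88e-07). Pdilt, a testis protein disulfide isomerase relative, had 72, 88 and 948 reads in control and 2, 4 and 6 in dsfb, so that control replicate 3 held most of its signal. It fell with all libraries (log2 −6.25, adjusted p = 0.00378) and without that one (log2 −4.01, adjusted p = 1.73e-08), but limma-voom did not call it (log2 −5.16, adjusted p = 0.0833) and DESeq2 gave it no adjusted p. Calr3 (calsperin) did not pass (log2 −0.43, adjusted p = 0.443), and its direction turned without control replicate 3 (log2 0.32).

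Lypd4, a lipid-anchored surface protein, fell from 340 ± 76.4 to 3.07 ± 0.438 CPM (log2 −6.79), and Zpbp2 and Zpbp, acrosomal proteins that bind the egg coat, fell by 7.62 and 3.77 on the log2 scale. Rnase10, a secreted protein of the ribonuclease family, had 114, 118 and 124 reads in control and 0 in each dsfb library, at least 98.1-fold lower with the floor of 3 reads over the group. Tex101, a germ cell surface partner of ADAM3, stayed high, at 638, 662 and 445 CPM in control and 368, 452 and 410 CPM in dsfb. Its groups overlapped, and its fall (log2 −0.51, edgeR adjusted p = 0.0270) was not past the threshold with upper-quartile (log2 −0.23, adjusted p = 0.252) or library-size scaling (log2 −0.12, adjusted p = 0.566), nor without control replicate 1 (adjusted p = 0.0597) or 2 (0.0859) or dsfb replicate 1 (0.114) or 3 (0.0876).

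The 5 others that did not pass were Adam1a, Ace, Pmis2, Ly6k and Tpst2. Control replicate 3 was 10.6-fold (Adam1a), 3.13-fold (Ace) and 4.77-fold (Pmis2) above the mean of the other controls, the direction of these 3 genes turned without it, and Ace, the angiotensin-converting enzyme with a testis isoform, then rose (log2 0.57, adjusted p = 3.84e-05). Adam1a, the other fertilin subunit, passed as a fall without control replicate 1 (adjusted p = 0.0386) or 2 (0.0319) and with no filter on low counts (0.0428). Ly6k, a partner of TEX101, was at 40.0 ± 6.76 and 34.1 ± 5.37 CPM, and Tpst2, which sulfates tyrosines, at 14.7 ± 0.415 and 16.3 ± 1.28 CPM. The proteases Prss37 (5, 0 and 131 reads in control) and Prss55 (0, 0 and 230) had 0 reads in dsfb and were not tested, and nearly all their control reads came from replicate 3. Ace, Ly6k, Pdilt and Zpbp, like Cd274, share exon bases with 1 or more genes on the opposite strand, and Adam1a with genes on both strands. So do the neighbours Dync1li2, Bean1, Trim71, Myh6 and Myh7 (opposite strand) and, among the MARVEL genes below, Syngr2 (same strand). The values of all these genes are uncertain to that extent.

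**Figure D5:**
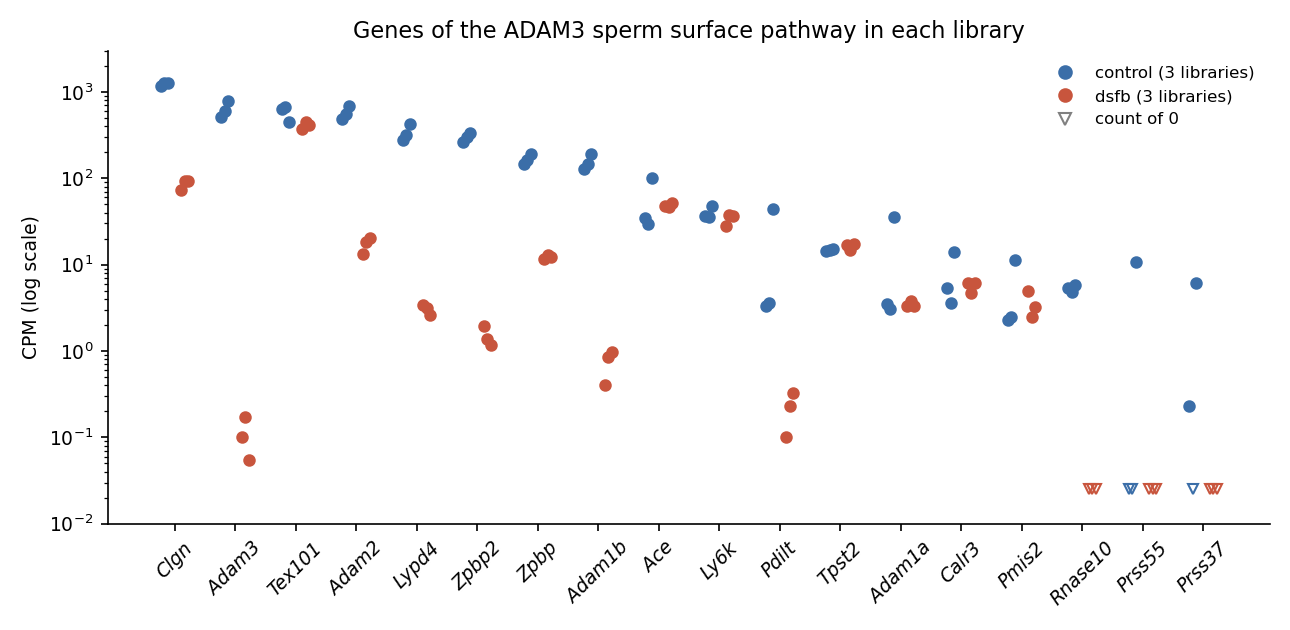
CPM of the 18 genes of the ADAM3 list on a log scale, 1 point per library, ordered by control mean, with open triangles for counts of 0. Adam3 lies below 0.2 CPM in each dsfb library, and control replicate 3 stands above the other controls in Pdilt, Adam1a, Ace, Calr3, Pmis2, Prss55 and Prss37.

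Profiles were compared by distance over the 6 libraries in log2 CPM, with the members, Cklf and genes under clone or predicted names left out. Among the rest, the 5 genes most like Cmtm2b were Slco6c1 (1.70), Abca14 (1.85), Tcp10c (1.88), Zbbx (2.21) and CK137956 (2.21). Slco6c1 encodes an organic anion transporter and went from 216 ± 21.2 CPM in control to 0 reads in dsfb, at least 4031-fold lower. Abca14, an ABC transporter gene, went from 167 ± 14.1 CPM to 0 reads, at least 3114-fold lower. Tcp10c has close copies in the t complex between which reads may be divided. Those most like Cmtm2a were Bpi (1.91), Zbbx (1.97), Ankrd60 (1.99), Sel1l2 (2.4) and Speer2 (2.41), of which Speer2 belongs to a family of close copies. Zbbx, at 76.7, 87.6 and 136 CPM in control and with 1 read in dsfb, was on both lists. None of the 9 genes lies on chromosome 8. Near-complete loss was not confined to these genes: 1002 of the 19826 tested genes had at most 3 reads over the dsfb libraries. Among the 3124 tested genes with a control mean of at least 100 CPM, 22 had so few, Cmtm2b included.

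Of 19 other genes with MARVEL or related 4-pass domains, 14 were tested, of which 8 rose, 3 fell and 3 did not pass (median log2 0.99), where 66.9% of all tested genes passed. The rises with the smallest p were Syngr2 (27.1 ± 4.50 to 66.3 ± 4.98 CPM, log2 1.29), Syngr1 (4.99 ± 0.131 to 11.9 ± 0.724 CPM, log2 1.26) and Ocln, the tight junction protein occludin (23.4 ± 5.03 to 47.4 ± 3.76 CPM, log2 1.02). Syngr4, a synaptogyrin relative, fell from 153, 178 and 216 CPM in control to 14.8, 14.9 and 15.2 CPM in dsfb (log2 −3.61, SE 0.14, edgeR adjusted p = 8.26e-07). Mall (log2 −4.50) and Marveld3 (log2 −2.45) fell from low levels of 2.98 ± 1.09 and 1.30 ± 1.08 CPM. The call of Marveld3 was lost without dsfb replicate 2 (adjusted p = 0.0573) or 3 (0.0661). Most of its control reads (15, 16 and 55) came from control replicate 3. It had too few reads to be tested without control replicate 1 or 3, or with a mean of at least 1 CPM required.

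The control libraries held 23983373, 27707291 and 25684743 counted reads and the dsfb libraries 17306363, 15335130 and 15957354, so that 1 CPM stood for 17.4 to 24.2 reads. Hormad1 was at 446, 486 and 209 CPM in control and 217, 246 and 243 CPM in dsfb, and Hormad2 at 60.0, 55.0 and 42.9 against 25.1, 28.7 and 27.3 CPM. Whole-gene counts of this kind do not check the alleles.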

How the data were processed

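Polyadenylated RNA of 6 mouse testes (3 control, 3 dsfb) was deposited as raw gene counts, 1 column per library. The submitters' processing notes name STAR 2.6.0 and mm10. The counting tool, annotation and use of strand were not given in the sources used here, and genes that overlap on opposite strands are uncertain. Of 55487 identifiers 55227 matched GENCODE M21; the other 260 held 0.0238% of counts.

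The counts were fitted with edgeR 4.0.16 in R 4.3.3 (filterByExpr, TMM, glmQLFTest, group as the only term). P-values were adjusted by Benjamini-Hochberg over 19826 genes, with a threshold of 0.05. The fit was tried on simulated counts with far fewer and smaller changes than these data hold. That check therefore does not cover changes as widespread or losses as large as those described here. CPM use TMM-scaled library sizes, fold changes edgeR's default prior count, and the SE was derived as |log2 fold change| divided by √F. Counting intervals (95%, exact binomial) and the floor of 3 reads cover counting error only. Promoter windows came from RefSeq, and exon lengths are unions over transcripts. Named genes were the members, Cklf, Cd274, the whole ADAM3 list, and the 3 rises and 3 falls with the smallest p among other MARVEL genes. Also named were the 5 nearest profiles (prior count 0.5) and the 3 nearest protein-coding neighbours. The profiles were ranked without the members, Cklf and clone or predicted names. Members and lists were chosen with earlier results of these data known. Alternatives were RLE, upper-quartile and library-size scaling, other filters, DESeq2 1.42.0, limma-voom (limma 3.58.1), a 2-fold threshold, a replicate block and leaving out each library.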

Additional observations from a re-analysis of the deposited data

How the results depend on the processing

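The calls of Cmtm2a, Cmtm3, Cmtm4, Cmtm6, Cmtm7 and Cklf kept their side of the threshold under 14 alternatives that test for any change. Cmtm8 passed with upper-quartile (log2 1.06, adjusted p = 0.0324) and library-size scaling (1.17, adjusted p = 0.0238). These scalings moved the median of all genes by 0.278 and 0.394 and gave 57.2% and 60.9% of calls as higher (45.9% with TMM; 35.5% with no filter on low counts); relative to that median Cmtm3 was at 0.98 with TMM and 0.97 with library size. With a test against a 2-fold threshold 542 genes rose and 4247 fell, and 0 members, 0 ADAM3 genes and 2 other MARVEL genes rose. On the ADAM3 list 1 gene rose with either scaling (Tpst2, log2 0.43 and 0.55). Left-out libraries gave 0 to 1 rises on that list (Ace without control replicate 3), and 4940 to 6596 rises and 6889 to 7621 falls over all genes. Over the left-out libraries Adam1a ranged from −2.50 to 0.0479, Calr3 from −0.78 to 0.32, Ace from −0.49 to 0.57, Pmis2 from −1.01 to 0.55 and Osbpl10 from −1.07 to 0.32, each highest without control replicate 3. With upper-quartile and library-size scaling the values were 0.10 and 0.23 for Ace, 0.05 and 0.17 for Ly6k, 0.0552 and 0.17 for Tk2 and 0.0404 and 0.16 for Cnot10, and Ace was at 0.0555 with limma-voom; the cause was not tested. Same-numbered libraries correlated at 0.062, 0.050 and 0.104, each best with its own number, and the others at −0.090 to 0.033. Values this small do not settle whether the numbers mark a pairing. The replicate block gave 6228 rises and 7203 falls, 4 rises and 1 fall among the members other than Cmtm2b, and Ace at 0.0439. At this depth 3 reads are 0.124 to 0.172 CPM, which limits Cmtm1, Cmtm5 and the dsfb values of Cmtm2a and Cmtm2b.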
